A study of Homo sapiens with 3 samples.

Results

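Chromosomes 4 and 13 are large human autosomes with few genes for their length, and they were examined here for the places where DNA replication starts. Every diffuse region called with EPIC2 and every narrow-peak summit called with MACS2 on these chromosomes was used, in all 3 replicates. This gave 48989 of 690746 rows on chromosomes 1 to 22, X and Y, made up of 13687 of 247794 EPIC2 regions and 35302 of 442952 summits. The data came from short nascent strand sequencing (SNS-seq) of untreated HCT116 cells, an established human colorectal cancer line grown in RPMI medium, and no genetic change or agent was applied to any sample. The labels put the 3 replicates in a single group without a control, and all comparisons are therefore between parts of the genome. Replicate 1 had 17018 summits on the pair of chromosomes, replicate 2 had 4727 and replicate 3 had 13557, and the lists hold no read numbers, so read depth is unknown. Copy number, which can differ along chromosomes of a cancer line, was not measured.

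SNS-seq recovers short DNA strands that begin with an RNA primer and therefore resist lambda exonuclease, which digests DNA from unprotected 5′ ends. Human origins have no fixed sequence. They tend to lie in open, transcribed chromatin near gene starts, and regions with few genes usually hold few efficient origins and replicate late in S phase. Chromosome 4 has a gene-rich tip on its short arm, where HTT and FGFR3 lie, and long gene deserts on its long arm. Chromosome 13 is acrocentric, meaning that its centromere lies near an end of the chromosome. Nearly all its genes are on the long arm, with BRCA2 and RB1 in the part nearer the centromere and a broad desert beyond them.

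The call of gene-poor was checked against RefSeq. Protein-coding genes numbered 770 on chromosome 4 and 338 on chromosome 13, or 4.05 and 3.48 genes for each 1 Mb window that held any call. Among the 22 autosomes, chromosome 13 was the lowest by this measure and chromosome 4 the third lowest, with chromosome 18 between them at 3.51. No gene is named by position, because the annotation at hand was of another genome build, and no sequence is printed for the same reason.

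EPIC2 regions in which the same replicate also had a summit are called common regions. There were 4071, 896 and 2146 common regions on chromosome 4 in replicates 1, 2 and 3, and 2278, 448 and 1105 on chromosome 13. Both chromosomes had fewer in replicate 2 than in either other library, as the whole genome had. Density here is the share of a replicate's common regions on a chromosome divided by that chromosome's share of the 2885 windows of 1 Mb with a call, so that 1 is the level of the genome.

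Chromosomes 4 and 13 had the lowest density of the 22 autosomes. On chromosome 4 it was 0.608, 0.538 and 0.577 in replicates 1, 2 and 3, a mean of 0.574 ± 0.0350 (SD, n = 3). On chromosome 13 it was 0.666, 0.527 and 0.582, a mean of 0.592 ± 0.0703 (SD, n = 3). The order of the pair turned in replicate 2, and their means differed by less than the spread between replicates. The other 20 autosomes ranged from 0.675 to 2.64 with a median of 1.05. The nearest neighbours were chromosome 18 at 0.675 ± 0.0554 and chromosome 5 at 0.686 ± 0.0363 (SD, n = 3 each). In every replicate both chromosomes lay below chromosomes 5 and 18 by common regions. Summits gave a milder deficit, with means of 0.784 ± 0.0507 for chromosome 4 and 0.812 ± 0.0366 for chromosome 13 (SD, n = 3). In replicate 3, chromosomes 18 and 21 had fewer summits per 1 Mb window than either, so the lowest rank did not hold there by summits. By common regions, the 3 replicates all fell below 1 on both chromosomes. The exact sign-flip permutation test over replicates gave p = 0.25, two-sided, which is the smallest that 3 replicates allow. That limit holds for each of the 14 comparisons tested here, of which 11 reached it, and after Benjamini-Hochberg adjustment over the 14 the lowest of these exact p-values was 0.318.

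**Figure D1:**
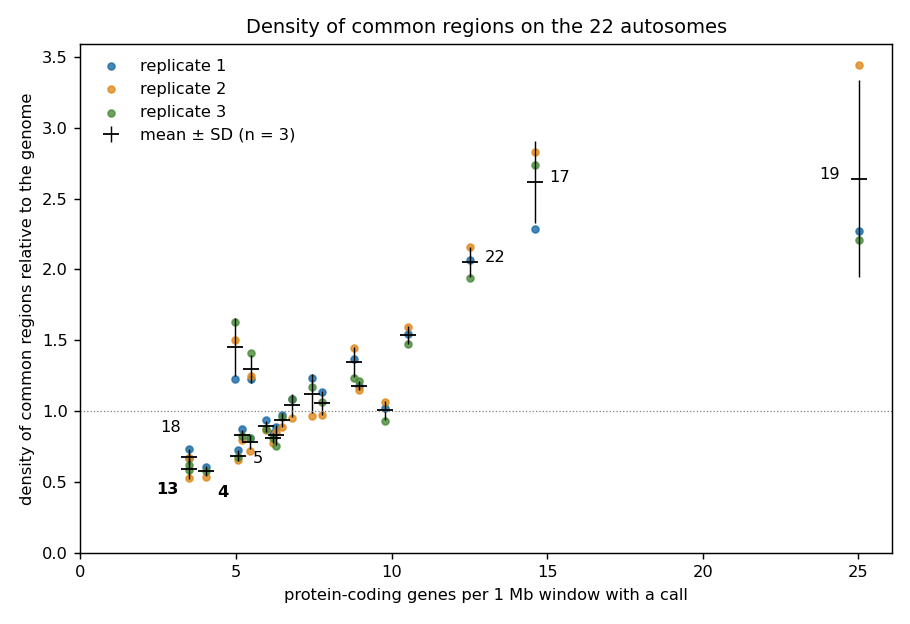
Density of common regions relative to the genome (vertical axis, 1 is the genome's level) against protein-coding genes per 1 Mb window with a call (horizontal axis) for the 22 autosomes. Coloured points are replicates and black bars the mean ± SD (n = 3), and chromosomes 4 and 13 sit at the lower left with means of 0.574 and 0.592.

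Density tended to rise with gene number over the autosomes, with exceptions. The Spearman correlation across the 22 chromosomes was 0.80 for the mean density and 0.82, 0.81 and 0.75 in replicates 1, 2 and 3. These are correlations across chromosomes of the same libraries and reference, given as a description. Chromosomes 4 and 13 lay at the low end of both measures, as the plot of density against gene number shows. Chromosomes of similar gene number could differ in density. Chromosomes 8 and 10 had 4.97 and 5.48 genes per window and mean densities of 1.45 and 1.30. Chromosome 5, with 5.08 genes per window, had 0.686.

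The low average of chromosome 4 hid an end of the short arm that was rich in origins. Chromosome 4 was divided at hg19 position 10000000 and chromosome 13 at 53000000, and both positions were proposed with results of these data known, so the sizes of the differences below are a description. The short-arm end of chromosome 4 had 66.9, 23.2 and 31.2 common regions per 1 Mb window in replicates 1, 2 and 3. The rest of chromosome 4 had 18.9, 3.69 and 10.2. The short-arm end was thus 3.54, 6.29 and 3.06 times as dense, a mean of 4.30 ± 1.74 (SD, n = 3). Counted by summits instead of common regions, the mean ratio was 2.13. The other autosomes together had 38.9, 9.75 and 21.8 per window, so the short-arm end was above their average and the rest of chromosome 4 below it in every replicate. Common regions became few a little inside the division. The last window before it held 8, 4 and 2 of them and the first window after it 19, 5 and 6. That last window was also poor in summits, with 16, 9 and 6 against 50, 16 and 44 in the next. Where the step lies is therefore uncertain.

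Chromosome 13 was divided less sharply. Its proximal part, from the first calls to the division, had 36.1, 6.85 and 19.6 common regions per 1 Mb window in replicates 1, 2 and 3, each under the value of the other autosomes. Its distal part had 16.7, 3.41 and 6.97. The proximal part was 2.17, 2.01 and 2.81 times as dense, a mean of 2.33 ± 0.424 (SD, n = 3). The window before the division held 42, 5 and 31 common regions, the window after it 21, 4 and 8, and the next one 2, 3 and 2.

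**Figure D2:**
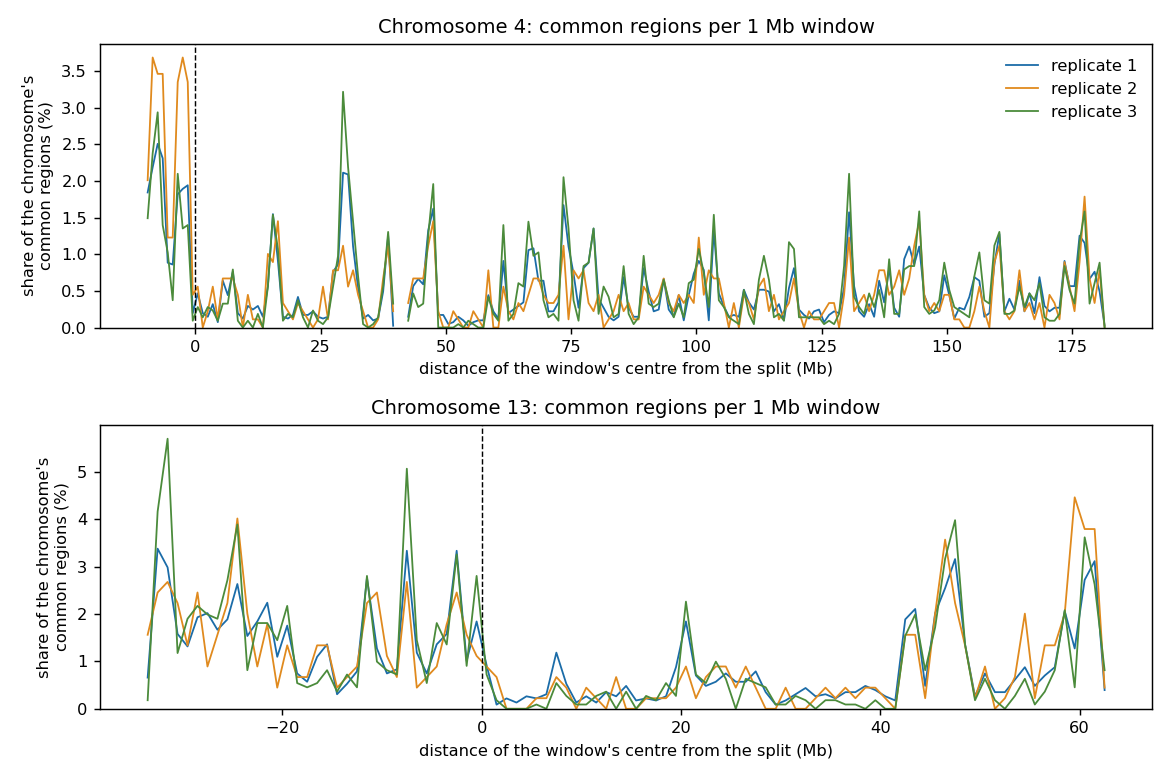
Share of a chromosome's common regions in each 1 Mb window (vertical axis, %) against the distance of the window's centre from the division (horizontal axis, Mb; dashed line at 0), with 1 line per replicate. On chromosome 4 the windows left of the line reach 3.68% in replicate 2, and on chromosome 13 a low stretch right of the line is followed by peaks toward the end of the long arm.

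The profiles of the 3 libraries along each chromosome were alike. Over the 190 windows of chromosome 4 the Spearman correlation of common region counts was 0.73 for replicates 1 and 2, 0.87 for replicates 1 and 3 and 0.69 for replicates 2 and 3. It was 0.87, 0.90 and 0.79 over the 97 windows of chromosome 13. Leaving out the dense part of each chromosome gave values between 0.66 and 0.86 for the rest of chromosome 4 and between 0.68 and 0.78 for distal chromosome 13. The windows share reference, mappability and base composition across libraries, so these values describe the profile and carry no p.

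Common regions that overlapped by at least 1 base were merged over replicates, and a merged region with at least 2 replicates is called a consensus origin. Chromosome 4 held 1398 and chromosome 13 held 782, together 2180 of 42075 in the genome. These numbers rested on replicate 1, which contributed to at least 97.1% of consensus origins in each part: without it there were 230 on chromosome 4 and 117 on chromosome 13. Without replicate 3 there were 575 and 318. The short-arm end made up 5.26% of the windows of chromosome 4 and held 307 of its 1398 consensus origins. Proximal chromosome 13 made up 35.1% of the windows of that chromosome and held 58.1% of its consensus origins. Consensus origins covered 17.3% of the short-arm end of chromosome 4, 2.13% of the rest, 4.90% of proximal and 1.87% of distal chromosome 13.

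The densest windows on chromosome 4 were named by the number of consensus origins. The first, chr4:2000001-3000000, held 56 consensus origins and 102, 31 and 63 common regions in replicates 1, 2 and 3. The second, chr4:1000001-2000000, held 47 and 89, 33 and 51. The third lay far from the tip at chr4:39000001-40000000, with 44 consensus origins and 86, 10 and 69 common regions. In this last window replicate 2 had 1.12% of its common regions on the chromosome, against 2.11% and 3.22% in replicates 1 and 3, whereas the first 2 windows held a larger share in replicate 2 than in the others. Of the 10 densest windows, 7 lay in the short-arm end, where a pair of windows with 15 and 7 consensus origins and a last one with 3 broke the series.

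On chromosome 13 the 3 densest windows were spread over the proximal part. They were chr13:45000001-46000000 with 40 consensus origins, chr13:21000001-22000000 with 38 and chr13:28000001-29000000 with 35. Their common regions numbered 76, 12 and 56 in replicates 1, 2 and 3 in the first, 68, 12 and 63 in the second and 60, 18 and 43 in the third. Distal chromosome 13 also had dense windows. The fourth densest, chr13:113000001-114000000, held 34 consensus origins and 62, 17 and 40 common regions. The windows ranked 6 to 8 also lay in the distal part, with 30, 30 and 27 consensus origins. By blocks of 10 Mb, chromosome 13 from 60 to 70 Mb held 11 consensus origins and from 80 to 90 Mb 10, while the 6 windows from 110 Mb to the end held 119. On chromosome 4 the lowest full blocks were 60 to 70 Mb with 11 and 130 to 140 Mb with 14, against 307 in the first 10 Mb. The end of the long arm of chromosome 4 was less rich, with 90 from 180 to 190 Mb.

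Common regions were concentrated in few windows. The densest 10% of windows, ranked within each replicate, held 32.9%, 38.5% and 35.1% of the common regions of chromosome 4 in replicates 1, 2 and 3, and 30.0%, 32.4% and 38.5% of those of chromosome 13. The means were 35.5% ± 2.83 and 33.6% ± 4.37 (SD, n = 3). The other autosomes ranged from 17.5% to 36.1% with a median of 29.5%, so both chromosomes lay in the upper part of that range and not outside it. Replicate 1 had at least 1 common region in each of the 287 windows with a call. Replicate 2 had none in 23 windows of chromosome 4 and 13 of chromosome 13, and replicate 3 none in 13 and 12. All of these empty windows lay outside the short-arm end of chromosome 4 and outside proximal chromosome 13.

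Common regions were wider where they were denser on chromosome 4. The median width of common regions in the short-arm end was 2000, 2400 and 3600 bases in replicates 1, 2 and 3, and in the rest of chromosome 4 it was 1200, 2000 and 2600. The ratio was above 1 in every replicate, with a mean of 1.42 ± 0.235 (SD, n = 3; exact sign-flip permutation p = 0.25). With all EPIC2 regions it was not above 1 in every replicate, with a mean of 1.37 ± 0.338 (SD, n = 3; exact sign-flip permutation p = 0.5). On chromosome 13 the medians were 1400, 2000 and 2800 bases in the proximal part and 1200, 2200 and 2800 in the distal part. The ratio there was 1.03 ± 0.131 (SD, n = 3), with 1 replicate above 1, 1 below and 1 equal to it, so no difference in width was larger than the spread between replicates. The other autosomes together had medians of 1600, 2400 and 3200 bases. EPIC2 regions are built from steps of 200 bases, so differences of 1 step are the finest that can be seen. The widest consensus origin of chromosome 4, chr4:3475601-3505600, spanned 30000 bases and merged 6, 4 and 1 common regions. That of chromosome 13, chr13:20433401-20453600, spanned 20200 bases and came from replicates 1 and 3.

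**Figure D3:**
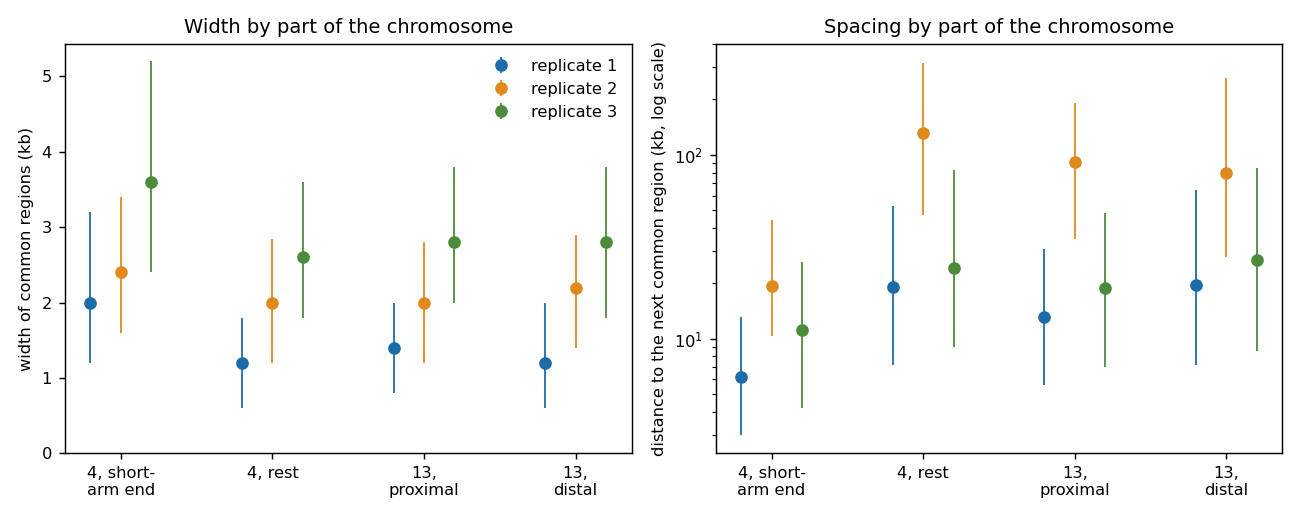
Width of common regions (left, kb) and distance from one common region to the next (right, kb on a log scale) in the 4 parts of chromosomes 4 and 13. Points are medians and bars run from the lower to the upper quartile within a replicate. The short-arm end of chromosome 4 has the widest and closest regions in each replicate, with median widths of 2000, 2400 and 3600 bases, and replicate 2 has the largest spacing in every part.

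Neighbouring common regions lay close together in the short-arm end of chromosome 4. The median distance between them, edge to edge, was 6200, 19400 and 11200 bases in replicates 1, 2 and 3, against 19000, 132000 and 24200 in the rest of the chromosome. The ratio was 0.326, 0.147 and 0.463, a mean of 0.312 ± 0.158 (SD, n = 3). Between neighbouring summits the mean ratio was 0.584 ± 0.206 (SD, n = 3). On chromosome 13 the medians were 13200, 91000 and 18800 bases in the proximal part and 19700, 80100 and 26700 in the distal part. Replicates 1 and 3 had closer regions in the proximal part, with ratios of 0.670 and 0.704, and replicate 2 had the opposite order at 1.14. The mean ratio of 0.837 ± 0.260 (SD, n = 3; exact sign-flip permutation p = 0.5) differed from 1 by less than the spread between replicates. With other units the proximal part was closer in 3 of 3 replicates, at 0.724 ± 0.0254 for all EPIC2 regions and 0.707 ± 0.0615 for summits (SD, n = 3; exact sign-flip permutation p = 0.25 for each). With consensus origins the median spacing was 29600 bases in proximal and 30000 in distal chromosome 13, although the proximal part had 13.4 consensus origins per window and the distal part 5.21. The spacing ratio thus depended on the unit, from 0.707 with summits to 0.987 with consensus origins. No consensus origin lay in 17 of the 63 distal windows, whereas each of the 34 proximal windows held at least 1.

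Long gaps were distances of at least 1 Mb between neighbouring consensus origins. Chromosome 4 had 35 with a total of 64.9 Mb, and 34 of them lay beyond the short-arm end. Chromosome 13 had 13 with a total of 32.3 Mb, of which 12 lay in the distal part. They took up 35.5% of the rest of chromosome 4 and 49.5% of distal chromosome 13, against 10.6% of the short-arm end of chromosome 4 and 3.40% of proximal chromosome 13, with 1 long gap in each. A further distance of 3.58 Mb on chromosome 4, chr4:49123401-52708200, spanned windows without any call at the centromere and was left out. Relative to the windows with a call, long gaps made up 34.2% of chromosome 4 and 33.3% of chromosome 13, the highest of the 22 autosomes, where the other 20 ranged from 0% to 27.7%. This is a value of the merged set with no error over replicates. Leaving out a replicate raised it to 76.2% and 81.1% without replicate 1, 48.6% and 45.8% without replicate 2, and 52.5% and 42.5% without replicate 3. Chromosome 18 was above both, at 49.0%, when replicate 2 was left out. Without replicate 1 the number of long gaps on chromosome 13 was 25.

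**Figure D4:**
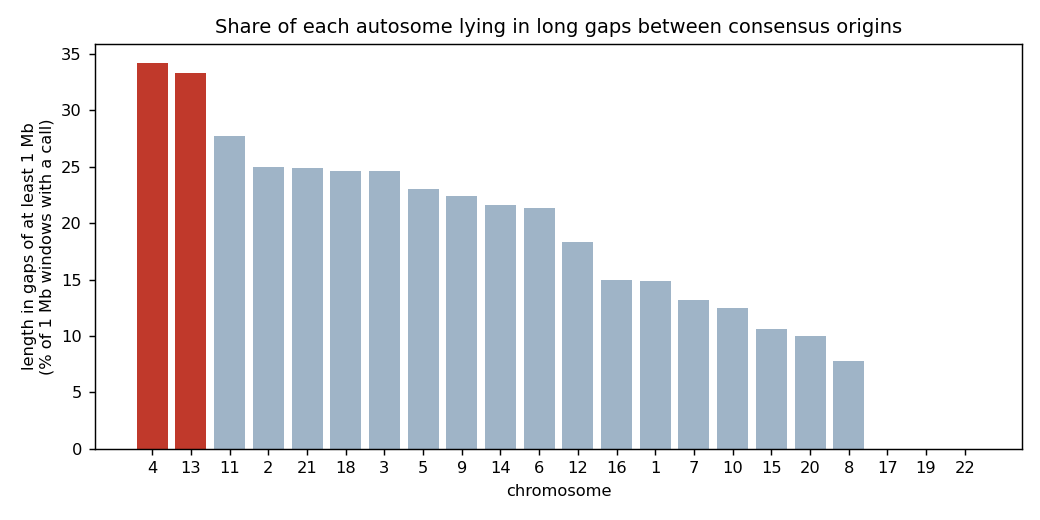
Length in gaps of at least 1 Mb between neighbouring consensus origins, as a percentage of the 1 Mb windows with a call (vertical axis), for each of the 22 autosomes (horizontal axis, ordered by value). Red bars are chromosomes 4 and 13 at 34.2% and 33.3%, and blue bars are the other autosomes, which reach at most 27.7%.

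The longest gap of the pair was chr13:53423201-59901200, which spanned 6.48 Mb and began just past the division of chromosome 13. No other autosome had a longer one. It was followed by chr13:67510201-71801200 with 4.29 Mb and chr13:89002001-91999000 with 3.00 Mb. The longest on chromosome 4 were chr4:57978601-62065200 with 4.09 Mb, chr4:20444201-24471400 with 4.03 Mb and chr4:42659401-46391400 with 3.73 Mb. The first of these was separated from the fourth longest, chr4:62068801-65472600 with 3.40 Mb, by a single consensus origin.

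Long gaps were thin in calls and not empty of them. The longest gap on chromosome 13 held 29, 5 and 3 common regions and 173, 50 and 113 summits in replicates 1, 2 and 3. The longest on chromosome 4 held 19, 5 and 0 common regions and 96, 35 and 53 summits. Over all 35 long gaps of chromosome 4 there were 6.53, 0.832 and 1.85 common regions per Mb, against 29.2, 6.73 and 16.2 over the remaining windows. On chromosome 13 there were 5.94, 0.650 and 1.21 against 32.2, 6.60 and 16.5. These differences follow from how the gaps were chosen and are a description. When a common region of any 1 replicate was enough to end a gap, each chromosome had 1 long gap.

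Summits outside EPIC2 regions were then counted. Over all chromosomes they made up 42.5%, 55.8% and 56.3% of summits in replicates 1, 2 and 3. On chromosome 4 they were 56.6%, 69.1% and 71.2%, and on chromosome 13 they were 55.2%, 70.8% and 71.3%. The mean difference from the other autosomes was 15.6 percentage points ± 0.922 for chromosome 4 and 15.7 ± 1.29 for chromosome 13 (SD, n = 3), in the same direction in 3 of 3 replicates (exact sign-flip permutation p = 0.25 for each). These were the highest mean shares of the 22 autosomes, and the other 20 ranged from 23.8% to 62.4%, with chromosome 18 at the top of that range. In every replicate chromosomes 4 and 13 held the first 2 places.

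Over each whole chromosome, the higher share came with fewer summits inside regions rather than with more outside them. Chromosome 4 had 25.02, 5.04 and 13.6 summits inside EPIC2 regions per 1 Mb window in replicates 1, 2 and 3, against 48.1, 10.7 and 27.4 on the other autosomes, a mean ratio of 0.495 ± 0.0254 (SD, n = 3). Outside EPIC2 regions it had 32.7, 11.3 and 33.7 per window, against 33.3, 12.8 and 33.2, a mean ratio of 0.958 ± 0.0712. Chromosome 13 gave 0.511 ± 0.0642 for summits inside and 0.993 ± 0.0562 for summits outside (SD, n = 3 each). The ratio for summits inside was below 1 in every replicate of both chromosomes, while that for summits outside lay on both sides of 1. Among the other 20 autosomes the ratio for summits inside ranged 4.44-fold, from 0.585 to 2.60, and that for summits outside ranged 1.37-fold, from 0.798 to 1.10. Chromosomes 4 and 13 were thus below the range of the others by summits inside, and within it by summits outside.

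Within chromosome 4 the share outside regions also differed between the parts. Summits outside EPIC2 regions were 25.6%, 38.9% and 45.3% of all summits in its short-arm end, below the share of the whole genome in every replicate. In the rest of the chromosome they were 60.1%, 73.9% and 73.4%, above it. The difference was -32.5 percentage points ± 3.85 (SD, n = 3). Per 1 Mb window the short-arm end had 82.1, 26.1 and 37.9 summits inside regions and the rest 21.8, 3.87 and 12.3. Summits outside numbered 28.3, 16.6 and 31.4 per window in the short-arm end and 32.9, 11.0 and 33.8 in the rest, so the rest had more of them in replicates 1 and 3 and fewer in replicate 2. Their ratio was 0.860, 1.52 and 0.929, a mean of 1.10 ± 0.360 (SD, n = 3; exact sign-flip permutation p = 1), and without replicate 2 it was 0.895.

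On chromosome 13 the share of summits outside regions differed less between the parts than on chromosome 4. Their share was 49.6%, 67.7% and 65.1% in the proximal part and 60.4%, 73.4% and 77.3% in the distal part, a difference of -9.58 percentage points ± 3.41 (SD, n = 3). With the upper 50% of EPIC2 scores the difference was -5.17 ± 2.47 (SD, n = 3). Per window the proximal part had 43.8, 7.26 and 23.2 summits inside and 43.1, 15.2 and 43.3 outside. The other autosomes together had 48.1, 10.7 and 27.4 inside and 33.3, 12.8 and 33.2 outside. In every replicate the proximal part thus had fewer summits inside and more outside than they had. The distal part had 19.5, 3.65 and 8.33 inside and 29.7, 10.1 and 28.4 outside. Unlike on chromosome 4, summits outside were denser in the proximal part in every replicate, 1.49 ± 0.0384 times (SD, n = 3; exact sign-flip permutation p = 0.25). Whether this ratio differs between chromosomes 4 and 13 was not tested.

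**Figure D5:**
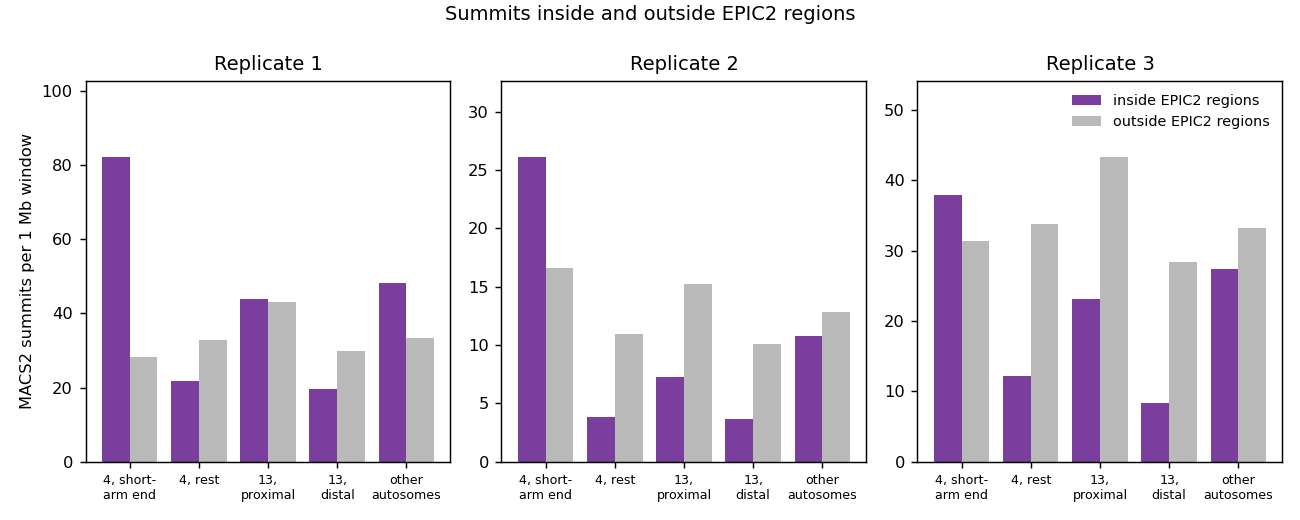
MACS2 summits per 1 Mb window with a call (vertical axis) inside (purple) and outside (grey) EPIC2 regions of the same replicate, for the 4 parts of chromosomes 4 and 13 and the other 20 autosomes together, 1 panel per replicate. On chromosome 4 the purple bars fall from 82.1 to 21.8 in replicate 1 from the short-arm end to the rest, while the grey bars are 28.3 and 32.9.

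Summits outside EPIC2 regions had lower scores than those inside. The MACS2 score was taken to be −log10 of the q-value. In the rest of chromosome 4 its median was 7.83, 6.14 and 5.16 inside and 3.61, 2.43 and 3.92 outside in replicates 1, 2 and 3. In distal chromosome 13 it was 7.82, 5.33 and 5.01 inside and 3.37, 2.49 and 3.92 outside. The order was the same in all 4 parts and 3 replicates. Outside summits were also matched less often: 24.5%, 44.7% and 26.3% of those in the rest of chromosome 4 lay within 250 bases of a summit of another replicate, against 37.8%, 65.3% and 32.6% of those inside. In distal chromosome 13 the shares were 25.7%, 45.9% and 27.5% outside and 39.2%, 66.5% and 36.2% inside. The shares depend on how many summits the other lists hold, and replicate 2, the smallest list, had the highest. Summits that lie where calls are dense also match more readily by position alone, which was not corrected for.

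Most outside summits in the sparse parts were not at the edge of a region. In the rest of chromosome 4 their median distance to the nearest EPIC2 region of the same replicate was 18118, 56870 and 34526 bases, and 17.3%, 4.26% and 11.1% lay within 5 kb of one. In distal chromosome 13 the distances were 24083, 67842 and 57696 bases. In the short-arm end of chromosome 4 they were 5600, 9975 and 7780 bases, with 44.5%, 23.5% and 35.3% within 5 kb. That end had 85.8, 36.1 and 46.9 EPIC2 regions per 1 Mb window, against 21.4, 5.98 and 12.9 in the rest of chromosome 4. Where regions are sparse such distances are longer by position alone, which was not corrected for. Widening EPIC2 regions by 1000 bases on each side left the direction of the difference between the parts of either chromosome as it was.

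Sharing between replicates was higher in the dense end of chromosome 4. Of its common regions, 53.8%, 84.1% and 71.2% in replicates 1, 2 and 3 overlapped a common region of another replicate, against 33.1%, 64.8% and 45.3% in the rest. Wide and closely spaced regions overlap more readily by position alone, which was not corrected for. On chromosome 13 the shares were 39.2%, 77.3% and 51.4% in the proximal part and 32.8%, 71.2% and 53.8% in the distal part, so the order turned in replicate 3. All 3 replicates contributed to 23.1% of consensus origins in the short-arm end of chromosome 4, 11.5% in the rest, 12.6% in proximal and 15.5% in distal chromosome 13.

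High-scoring consensus origins found in every replicate also occurred in the sparse parts. Of all consensus origins found in every replicate, 125 of 196 on chromosome 4 lay beyond the short-arm end. This was a lower share than that part's 78.0% of all consensus origins and 94.7% of windows on the chromosome. On chromosome 13, 51 of 108 lay in the distal part, which held 41.9% of all its consensus origins and 64.9% of its windows. The origins named below are therefore examples and no measure of the parts. The leading one on chromosome 4 was chr4:113622801-113628400, where the top summit scored 46.7 in replicate 1, 57.6 in replicate 2 and 11.3 in replicate 3. Next came chr4:56061001-56064200 with 45.9, 84.1 and 8.94. The third, chr4:7040201-7045600, lay in the short-arm end and had 16.8, 22.5 and 12.5. On chromosome 13 the first was chr13:107219001-107222000 in the distal part, with 40.0, 45.3 and 9.17. The second was chr13:23729601-23735200 with 21.2, 16.7 and 8.62, and the third was chr13:24734601-24737600 with 16.2, 25.4 and 6.89. Replicate 3 had the lowest of the 3 scores in each of these 6 origins, and how scores compare between replicates is not known here.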

How the data were processed

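Calls that the authors deposited for the SNS-seq libraries were the starting point. According to the study's methods and the submitters' processing notes, reads were aligned to hg19 (Bowtie2 2.3.4.2), duplicates were removed (Picard 2.18.17), and each replicate was called on its own with MACS2 2.1.0.20151222 at q = 0.1 and with EPIC2 at FDR = 0.1. A control library for calling is not named there. The deposited MACS2 lists hold summits with a score taken to be −log10 of the q-value, as no summit exceeds q = 0.1 on that reading. The deposited EPIC2 lists hold regions with a score of unstated kind. The last EPIC2 ends (191033200 on chromosome 4 and 115088800 on chromosome 13) lie past the ends of these chromosomes in GRCh38 (190214555 and 114364328), so that reference was used only to count protein-coding genes per chromosome (RefSeq, GRCh38.p14).

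A region belonged to the part that held its midpoint. Densities are per 1 Mb window with a call of either kind in any replicate. Distances that span a window without a call were left out. Values were computed per replicate and compared with an exact sign-flip permutation test over the 3 replicates, on log2 ratios or differences. Whether the replicates are separate cultures is not given by the labels. The SD gives the spread between these samples, while the sign-flip p-value is 0.25 whenever all 3 values share a sign. Named regions were, on each chromosome, the 3 longest gaps, the 3 windows densest in consensus origins, the 3 consensus origins of highest mean score percentile among those found in every replicate, and the widest. Other windows, blocks of 10 Mb and the fourth longest gap of chromosome 4 were named after their values were seen. The members, divisions and measures were chosen with earlier results of these data known. Alternatives covered the unit, thresholds, overlap, denominator, window, gap length and position of the divisions, and leaving out each replicate. The ratio of summits outside regions was an addition made once values had been seen. Interval arithmetic was checked on 2000 simulated regions. Python 3.11.15, numpy 2.4.6 and scipy 1.17.1 were used.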

Additional observations from a re-analysis of the deposited data

How the results depend on the processing

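Of 154 values under an alternative for 20 results, 118 belonged to the 14 results with an exact test, none of which could pass a threshold with 3 replicates. Their direction was kept except as follows. The width ratio of the parts of chromosome 13 was 1 with consensus origins, 0.998 at a q-value of at most 0.01 and between 0.955 (without replicate 1) and 1.08 on leaving out 1 replicate. The ratio of summits outside EPIC2 regions on chromosome 4 was between 0.895 (without replicate 2) and 1.22. The density ratio of the parts was between 2.13 and 5.07 on chromosome 4 and between 1.74 and 2.56 on chromosome 13 under the other alternatives. Long gaps numbered 84 and 34 on chromosomes 4 and 13 at 500 kb or more, 10 and 7 at 2 Mb or more, and 1 and 1 with common regions of any replicate. On leaving out 1 replicate they numbered 39 to 49 and 14 to 25. Consensus origins numbered 196 and 108 with all 3 replicates required, 767 and 446 with a reciprocal overlap of 50%, and 577 and 311 with the upper 50% of EPIC2 scores. On leaving out 1 replicate they numbered 230 to 989 and 117 to 552. The share in the densest 10% of windows was 38.4% on chromosome 4 with 500 kb windows, and 21.8% and 21.0% on chromosomes 4 and 13 with summits. Longer or shorter gap limits, more replicates and higher thresholds alter numbers by construction. For the remaining changes the cause was not tested. Without read numbers, the part of depth in the short lists of replicate 2 cannot be given. Only 1 group was sampled, so replicate numbers pair no groups, and ratios and differences between parts were formed within each replicate.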

Other observations

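The EPIC2 score was higher in the denser part of chromosome 4 in every replicate. The median EPIC2 score of common regions was 53.6, 47.9 and 54.6 in the short-arm end in replicates 1, 2 and 3, and 36.2, 38.3 and 44.6 in the rest of the chromosome. A common region held more than 1 summit in 19.9%, 12.1% and 18.9% of cases in the short-arm end and in 14.7%, 4.82% and 19.4% in the rest, so the order turned in replicate 3. The median summit score inside regions went the other way, with 5.99, 5.81 and 3.92 in the short-arm end and 7.83, 6.14 and 5.16 in the rest. On chromosome 13 the EPIC2 score was 38.6, 39.5 and 44.8 in the proximal part and 35.5, 38.5 and 45.4 in the distal part.

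EPIC2 regions held a summit of their own replicate at higher shares on these chromosomes than on the other autosomes pooled, a difference that was not tested. The share was 86.4%, 62.3% and 76.7% on chromosome 4 and 88.4%, 61.9% and 76.9% on chromosome 13, against 81.3%, 56.4% and 71.4% on the other autosomes. Chromosomes 5 and 18 had 84.9%, 62.7% and 74.6%, and 85.3%, 61.4% and 74.4%. In replicate 2 the pooled value included low shares on chromosomes 8, 10, 16 and 17, at 42.1%, 46.2%, 52.2% and 47.0%. Chromosomes 19, 20 and 21 lay above both of the pair in that replicate, at 63.7%, 63.7% and 63.9%. The higher share was thus not particular to chromosomes 4 and 13 in replicate 2. Within chromosome 4 it was 78.0%, 64.3% and 66.5% in the short-arm end and 88.2%, 61.7% and 78.7% in the rest.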
